A study of Rattus norvegicus with 862 samples.

Results

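The hearts of 9 male Sprague-Dawley rats dosed daily by oral gavage with chlorobenzene, 500 mg/kg in the vehicle CMC, were set against those of 27 rats given CMC alone. These 9 rats, 3 each at 1 d, 3 d and 5 d, with 1 array per animal, gave every chlorobenzene array among the 862 arrays (840 rats) of the series. They were chosen by their labels (compound, dose, vehicle, route), and the controls were the dose-0 animals of the same vehicle, route, duration and RNA extraction campaign, 9 at each duration. The rats were 6 to 8 weeks old when bought, and 1 d hearts were taken in the afternoon and 3 d and 5 d hearts in the morning in both groups. Polyadenylated RNA of each heart was hybridised to 1 rat expression array, and each level below is the deposited log2 value of 1 probe set per gene. Errors after ± are standard errors of the log2 change unless given as SD. Levels of different genes come from different probe sets and were not compared with each other.

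Chlorobenzene is a ring solvent known for damage to the liver and kidney. Cytochrome P450 enzymes oxidise it to reactive epoxides. These are opened by epoxide hydrolase, coupled to glutathione by glutathione S-transferases, or rearranged to chlorophenols that are sulphated or glucuronidated before excretion. When glutathione runs low, the transcription factor NRF2 (gene Nfe2l2) turns on genes for glutathione synthesis, quinone reduction and haem breakdown. In heart muscle, stress of many kinds also draws on immediate early genes, heat shock proteins, glucocorticoid-responsive genes and the switch from glucose to fatty acid use.

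All 9 chlorobenzene rats came from 1 in-life study that held no CMC controls, and the 27 controls came from 11 other studies, so the study and the treatment cannot be told apart. The heart muscle list, 19 measured genes such as Myh6 and Tnnt2, had a median level of 13.58 to 13.75 per array in chlorobenzene hearts and 13.55 to 13.74 in CMC controls, and none of its genes was called in either direction. Liver transcripts were present in some arrays of both groups. The median of the 14 liver genes was 7.93 in chlorobenzene rat 1 at 1 d and 4.91 to 5.24 in the other 8 chlorobenzene rats, against 4.75 to 9.52 in the controls, the highest being control rat 10 at 5 d. The 6 arrays with an albumin (Alb) level of 9 or more, 1 chlorobenzene array and 5 controls, were left out in an added fit, which is quoted where it matters. Just 1 of the RNA extraction dates was shared by both groups, with 4 chlorobenzene arrays and 5 controls. All 413 genes called below kept their sign within that date, and 320 of them were past 1.5-fold there. These arrays were among those used to call the genes, so this is no separate test of a date or study effect.

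Over the 3 durations, 213 of 14217 genes were higher after chlorobenzene (1.50%) and 200 were lower (1.41%), together 2.90%. A gene was called where limma's p, adjusted by Benjamini and Hochberg's method over all genes, was at most 0.01 and the change was at least 1.5-fold. The median change of all genes was -0.002 on the log2 scale. The changes of the called genes ran from -2.27 to 4.68 on the log2 scale, and 130 of them were 2-fold or more. At 1 d, 264 genes were higher (1.86%) and 177 lower (1.24%), together 441 genes (3.10%). At 3 d, 153 were higher (1.08%) and 156 lower (1.10%), together 309 (2.17%), and at 5 d 121 were higher (0.851%) and 197 lower (1.39%), together 318 (2.24%). Of the 413 genes, 408 moved the same way at all 3 durations, whereas 80 of 14217 genes (0.563%) had a change that itself differed between durations. The values of all 3 treated rats lay outside those of all 9 controls at every duration for 35 higher genes (0.246%) and 66 lower genes (0.464%). At a single duration all treated rats lay above all controls for 2.72% of genes at 1 d, 3.22% at 3 d and 1.48% at 5 d, and below them for 5.80%, 3.06% and 3.57%. The per-duration counts rested on few animals: the 3 d count of 309 was 100 without chlorobenzene rat 1 and 164 without rat 3 of that duration, the 1 d count of 441 was 279 without rat 1, and the 5 d count of 318 was 161 without rat 3. Without the 6 arrays with liver transcripts, 431 genes were called over the 3 durations, 382 of them among the 413, and 254 at 1 d.

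**Figure D1:**
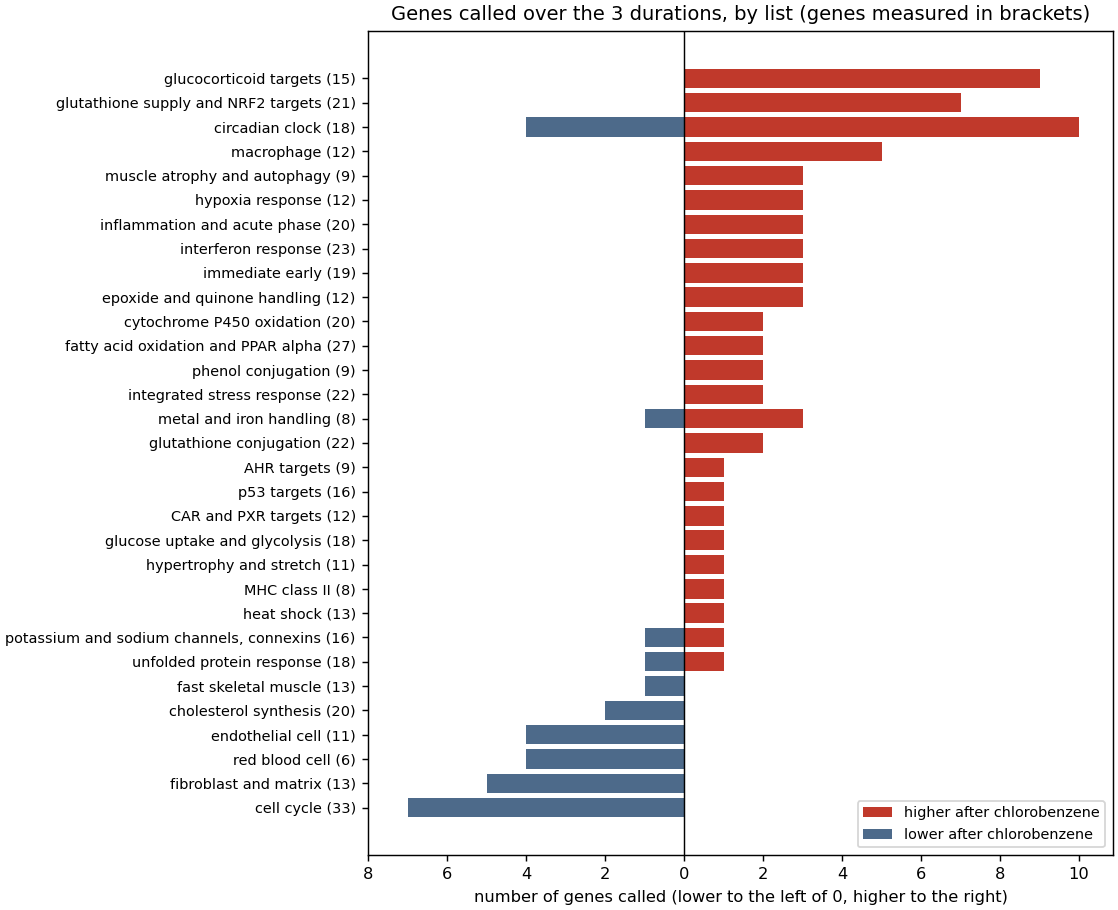
Number of genes called over the 3 durations in each marker or pathway list that had a call. Bars to the right count genes higher after chlorobenzene and bars to the left genes lower, and the number of genes measured stands in brackets. The circadian clock list had 10 genes higher and 4 lower of 18, and the cell cycle list 7 lower of 33.

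Genes of iron and haem handling gave the largest drop of the comparison. Tfrc, the transferrin receptor through which cells take up iron, was lower by a log2 change of -2.27 ± 0.18 (SE), 4.81-fold lower (adjusted p = 4.12e-11). Tfrc levels in the chlorobenzene rats were 7.97, 9.61 and 8.32 at 1 d, 8.83, 10.47 and 10.25 at 3 d and 9.64, 9.38 and 8.03 at 5 d. The CMC controls had 11.11 to 11.80 (median 11.44) at 1 d, 10.83 to 11.81 (median 11.58) at 3 d and 11.09 to 11.90 (median 11.51) at 5 d. No chlorobenzene heart reached the lowest control at any duration. Hmox1, the haem oxygenase that releases iron from haem, was 3.76-fold higher (log2 1.91 ± 0.22, adjusted p = 4.04e-08). Hmox1 levels in the chlorobenzene rats were 9.53, 7.92 and 9.76 at 1 d, 9.60, 8.01 and 9.08 at 3 d and 8.58, 9.61 and 8.12 at 5 d. Control levels were 6.53 to 7.42 (median 6.84) at 1 d, 6.81 to 7.43 (median 7.03) at 3 d and 6.00 to 9.20 (median 6.76) at 5 d. The groups did not overlap at 1 d and 3 d, and 1 control reached into the treated range at 5 d. Hamp, which encodes the iron hormone hepcidin, was 3.18-fold higher over the 3 durations (adjusted p = 8.87e-05) with levels of 6.37 to 9.64 (median 8.30) in chlorobenzene hearts and 5.75 to 9.39 (median 6.42) in controls, and the groups overlapped at 1 d and 3 d. Mt2A, a metallothionein that binds zinc and copper, was 3.72-fold higher (log2 1.89 ± 0.18, adjusted p = 7.08e-10), with 10.46, 9.76 and 10.09 in chlorobenzene rats and 7.58 to 8.38 (median 7.87) in controls at 3 d. Of the 8 measured genes of metal and iron handling, these 4 were called, 3 higher and 1 lower, and 4 were not. Over all genes, 1.50% were called higher and 1.41% lower. Within the shared extraction date the log2 changes were -1.91 for Tfrc and 1.22 for Hmox1.

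Some red blood cell transcripts were lower. Of the 6 measured genes of this list, 4 were called lower over the 3 durations, none at 1 d, 4 at 3 d and 2 at 5 d, beside 1.41%, 1.24%, 1.10% and 1.39% of all genes, and the median change over the 3 durations was -0.82, beside -0.002 for all genes. Slc4a1, the anion exchanger of the red cell membrane, had 6.66, 7.68 and 7.14 in the chlorobenzene rats, against 6.55 to 8.52 (median 7.89) in the CMC controls at 1 d, where the groups overlapped. At 3 d it had 6.36, 5.40 and 4.82 in the chlorobenzene rats, against 6.76 to 9.20 (median 7.88) in the CMC controls, 4.94-fold lower (log2 -2.30 ± 0.40, adjusted p = 0.000285), and not called without treated rat 3 of 3 d (adjusted p = 0.012). Alas2, the haem synthesis enzyme of erythroid cells, had 9.14, 9.85 and 9.83 in chlorobenzene rats and 9.46 to 10.42 (median 9.85) in controls at 1 d. At 5 d it had 7.70, 6.77 and 8.03 in the chlorobenzene rats, against 8.77 to 9.71 (median 9.48) in the CMC controls, 3.77-fold lower (adjusted p = 8.79e-05). Hbb, the beta globin chain, had 12.60, 11.72 and 12.44 in the chlorobenzene rats, against 13.06 to 13.69 (median 13.58) in the CMC controls at 5 d, 2.4-fold lower (adjusted p = 1.13e-05), and 13.53, 13.79 and 13.61 in the chlorobenzene rats, against 13.55 to 13.93 (median 13.75) in the CMC controls at 1 d. Ahsp, which stabilises free alpha globin, was 1.89-fold lower over the 3 durations (adjusted p = 1.02e-05). The list median per array was 6.73 to 7.67 at 1 d, 5.91 to 6.42 at 3 d and 5.96 to 6.29 at 5 d in chlorobenzene hearts, against 6.96 to 8.37, 7.28 to 9.06 and 6.60 to 7.66 in controls, so the groups were apart at 3 d and 5 d and overlapped at 1 d. The test of the change by duration was not passed by Slc4a1, Alas2 or Hbb (adjusted p = 0.284, 0.101 and 0.0221). With the hybridisation date as a random block, and likewise without the 6 arrays with liver transcripts, 2 were called at 3 d in place of 4. Within the hybridisation date that held both groups (2 chlorobenzene rats and 4 controls) the log2 changes were -0.18 for Slc4a1, -0.17 for Alas2, -0.27 for Ahsp and 0.00 for Hbb. With duration in the fit, these values rested on 1 treated rat, rat 2 of 1 d, and on control rats 7 to 9 of 1 d. They are 1 d values, whereas the changes over all rats, -1.31, -1.28, -0.92 and -0.72 in the same order, cover 3 durations. A date effect on the later drop was therefore not tested. In RNA of a whole tissue, fewer cells of a type and less RNA per cell cannot be told apart.

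**Figure D2:**
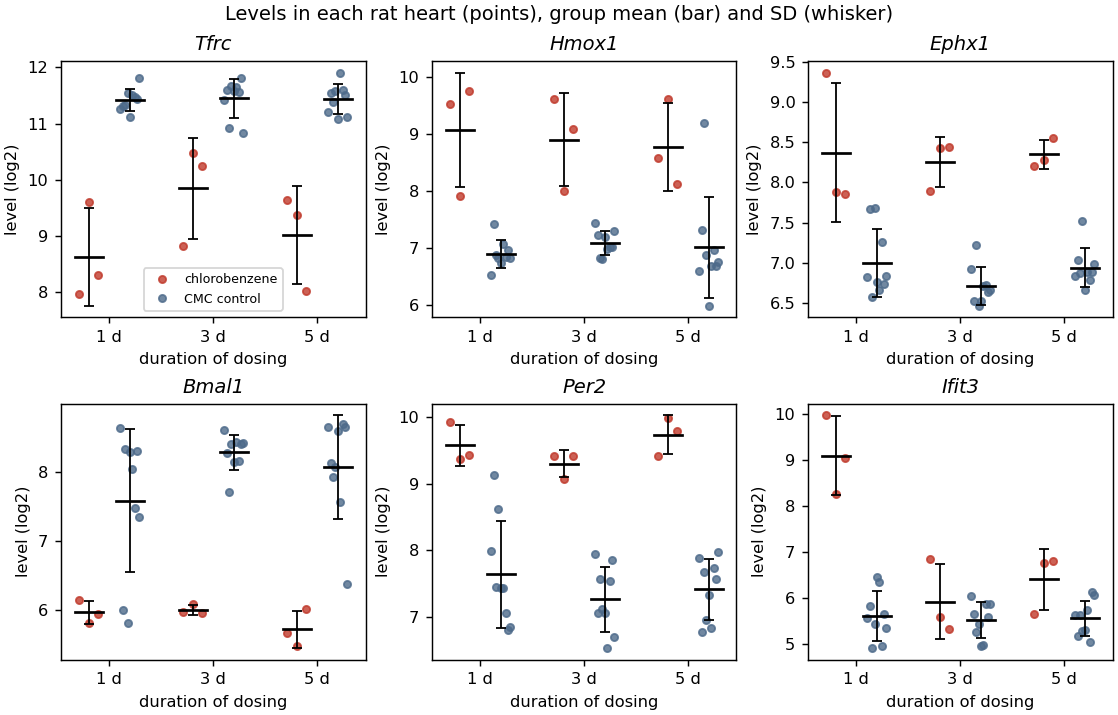
Log2 levels (vertical axis) of 6 genes in each rat heart at 1, 3 and 5 d (horizontal axis), chlorobenzene in red to the left of CMC controls in blue, with the group mean as a bar and the SD as whiskers (n = 3 and 9). Tfrc and Per2 were separate from controls at every duration, whereas Ifit3 was separate at 1 d and overlapped at 3 d and 5 d.

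Some genes of the NRF2 and glutathione response were higher. Of 21 measured genes of glutathione supply and NRF2 targets, 7 were called higher (1.50% of all genes were) and 14 were not called, and the median change of the list was 0.10. Besides Hmox1, these were Srxn1, Gclc, Sqstm1, Nqo1, Txnrd1 and Osgin1. Srxn1, the sulfiredoxin that restores oxidised peroxiredoxins, was 3.06-fold higher (log2 1.61 ± 0.21, adjusted p = 2.22e-07). Srxn1 levels in the chlorobenzene rats were 9.19, 8.05 and 9.78 at 1 d and 7.16, 8.35 and 7.62 at 5 d. In CMC controls they were 5.75 to 7.09 (median 6.55) at 1 d and 6.26 to 7.46 (median 6.62) at 5 d. Treated rats were above every control at 1 d and overlapped with controls later. Gclc, the catalytic subunit of the rate-limiting enzyme of glutathione synthesis, was 1.95-fold higher (adjusted p = 1.79e-05) with levels of 7.09 to 9.12 (median 7.67) in chlorobenzene hearts and 6.49 to 8.07 (median 6.89) in controls. Nqo1, a quinone reductase, was 1.67-fold higher and Txnrd1, thioredoxin reductase, 1.62-fold higher (adjusted p = 3.28e-07 and 7.48e-07). Osgin1 was 2.62-fold higher at 1 d (adjusted p = 9.91e-07) and its change differed between durations (adjusted p = 0.00497), with log2 changes of 0.16 at 3 d and 0.32 at 5 d that did not pass. Without the 6 arrays with liver transcripts, 6 of the 21 genes were called higher over the 3 durations, and 3 instead of 7 at 1 d, where 1.86% of all genes were called higher. At 3 d 3 were called higher, beside 1.08% of all genes, and none with the hybridisation date as a random block.

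Among the enzymes that handle chlorobenzene itself, a few were called higher. Of 12 measured genes of epoxide and quinone handling, 3 were called higher over the 3 durations and 9 were not called, with a list median change of -0.01. Of 9 genes of phenol conjugation, 2 were called higher and 7 were not, with a list median of 0.19. Ephx1, the microsomal epoxide hydrolase, was higher in every treated rat than in any control of its duration. Ephx1 levels in the chlorobenzene rats were 9.37, 7.88 and 7.85 at 1 d, 7.90, 8.43 and 8.44 at 3 d and 8.21, 8.28 and 8.56 at 5 d. CMC controls ranged over 6.58 to 7.68 (median 6.82) at 1 d, 6.47 to 7.23 (median 6.66) at 3 d and 6.66 to 7.52 (median 6.88) at 5 d. The gene was 2.71-fold higher (log2 1.44 ± 0.13, adjusted p = 3.96e-10). The highest value, at 1 d, was that of rat 1, the heart with liver transcripts. Without the 6 arrays with liver transcripts the log2 change was 1.35 (adjusted p = 7.33e-10). Sult1a1, a sulfotransferase of phenols, was 3.68-fold higher (log2 1.88 ± 0.28, adjusted p = 4e-06). Sult1a1 levels in the chlorobenzene rats were 8.63, 8.51 and 9.72 at 1 d, 9.40, 10.01 and 9.71 at 3 d and 10.02, 9.79 and 9.93 at 5 d. The controls had 6.60 to 9.03 (median 7.05) at 1 d, 6.60 to 8.87 (median 7.81) at 3 d and 6.89 to 9.58 (median 7.94) at 5 d. The groups overlapped at 1 d and were apart later. Ugdh, which makes the sugar donor for glucuronides, was 1.57-fold higher (adjusted p = 0.00179), and the call was lost without the 6 arrays with liver transcripts (adjusted p = 0.0168). Cyp2e1, the P450 best known for oxidising small solvents, was 3.18-fold higher at 1 d (adjusted p = 0.000598), with levels of 8.92, 7.68 and 8.89 in the chlorobenzene rats, against 6.14 to 7.38 (median 6.92) in the CMC controls. Its log2 changes were 0.39 at 3 d and -0.31 at 5 d, neither of which passed, and without the 6 arrays with liver transcripts the 1 d change was 1.38 (adjusted p = 0.00474). Its 1 d call was lost when either of 2 treated rats was left out, with an adjusted p of up to 0.016. Of 20 P450 genes and their partners, 2 were called higher over the 3 durations, beside 1.50% of all genes: Cyp4b1 (1.87-fold) and the electron donor Por (1.59-fold). Of 22 genes of glutathione conjugation, Gsta1 (1.74-fold) and Mgst2 (1.59-fold) were called higher, beside the same 1.50%. Akr1b8, an aldo-keto reductase, was 1.66-fold higher (adjusted p = 0.00262) and lost its call without the 6 arrays with liver transcripts (adjusted p = 0.0204). In the lists of AHR targets and of CAR and PXR targets, 1 of 9 and 1 of 12 genes were called, Nqo1 and Por. In that of p53 targets 1 of 16 was called, Sesn1 (2.06-fold higher). Beside 1.50% of all genes called higher, single calls in lists this short say little about the lists.

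Interferon-induced genes, which cells turn on against viruses and in response to interferons, were called higher at 1 d. Of 23 measured interferon genes, 19 were called higher at 1 d and none lower, beside 1.86% and 1.24% of all genes, and the median change of the list was 1.64 on the log2 scale, beside -0.023 for all genes. The treated rats lay above all controls at 1 d for 19 of the 23, beside 2.72% of all genes. At 3 d none was called higher and 2 were called lower, and at 5 d none higher and 1 lower. Of all genes, 1.10% and 1.39% were called lower at these durations. Ifit3, an interferon-induced antiviral protein, had 9.97, 8.26 and 9.05 in the chlorobenzene rats, against 4.91 to 6.46 (median 5.58) in the CMC controls at 1 d, a change of 11.2-fold (log2 3.48 ± 0.33, adjusted p = 1.94e-09). At 3 d it had 6.85, 5.60 and 5.32 in the chlorobenzene rats, against 4.95 to 6.05 (median 5.59) in the CMC controls, and the groups overlapped. Mx1, a dynamin-like antiviral GTPase, had 9.58, 7.33 and 8.71 in the chlorobenzene rats, against 4.55 to 6.13 (median 5.09) in the CMC controls at 1 d (10.3-fold higher, adjusted p = 2.98e-09). Gbp2, a guanylate-binding protein, had 11.10, 10.25 and 11.47 in the chlorobenzene rats, against 7.84 to 8.56 (median 8.24) in the CMC controls at 1 d (6.51-fold higher, adjusted p = 4.09e-10). At 3 d the same gene had 7.43, 7.20 and 7.29 in the chlorobenzene rats, against 7.71 to 8.89 (median 8.18) in the CMC controls, so that all treated rats lay below all controls, but this change did not pass the test (log2 -0.89 ± 0.24, adjusted p = 0.0183). Cxcl10, a chemokine that attracts T cells, was 4.48-fold higher at 1 d (adjusted p = 1e-09), and the antigen-processing genes Tap1 and Psmb9 were 3.93-fold and 3.61-fold higher (adjusted p = 1.42e-10 and 2.98e-10). The 2 genes lower at 3 d were Rsad2 (2.44-fold) and Bst2 (2.03-fold), and the call of Rsad2 was lost without either of 2 treated rats (adjusted p of up to 0.0223).

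The test of the change by duration was passed by 80 genes. Of these, 16 were in the interferon list, 67 were called higher at 1 d, and 71 had their largest change at 1 d. The 6 of smallest adjusted p were Wars1, LOC100910973, Irf1, Gbp2, Gbp4 and Parp14. Wars1, the tryptophanyl-tRNA synthetase that interferon-gamma induces, had an adjusted p of 5.75e-13 for the change by duration. Wars1 levels in the chlorobenzene rats were 10.56, 10.52 and 10.97 at 1 d, 8.49, 8.26 and 8.63 at 3 d and 8.58, 8.77 and 8.58 at 5 d. The CMC controls had 8.44 to 8.90 (median 8.67) at 1 d, 8.37 to 8.86 (median 8.55) at 3 d and 8.50 to 8.79 (median 8.62) at 5 d. Irf1, a transcription factor of the interferon-gamma response, had log2 changes of 1.94, -0.25 and -0.23 at 1, 3 and 5 d (adjusted p = 1.88e-10). LOC100910973 was 2.8-fold higher at 1 d and 1.7-fold lower at 3 d, both called. Without the 6 arrays with liver transcripts, 16 of 23 interferon genes were called higher at 1 d. With the hybridisation date as a random block, 19 of 23 were called.

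**Figure D3:**
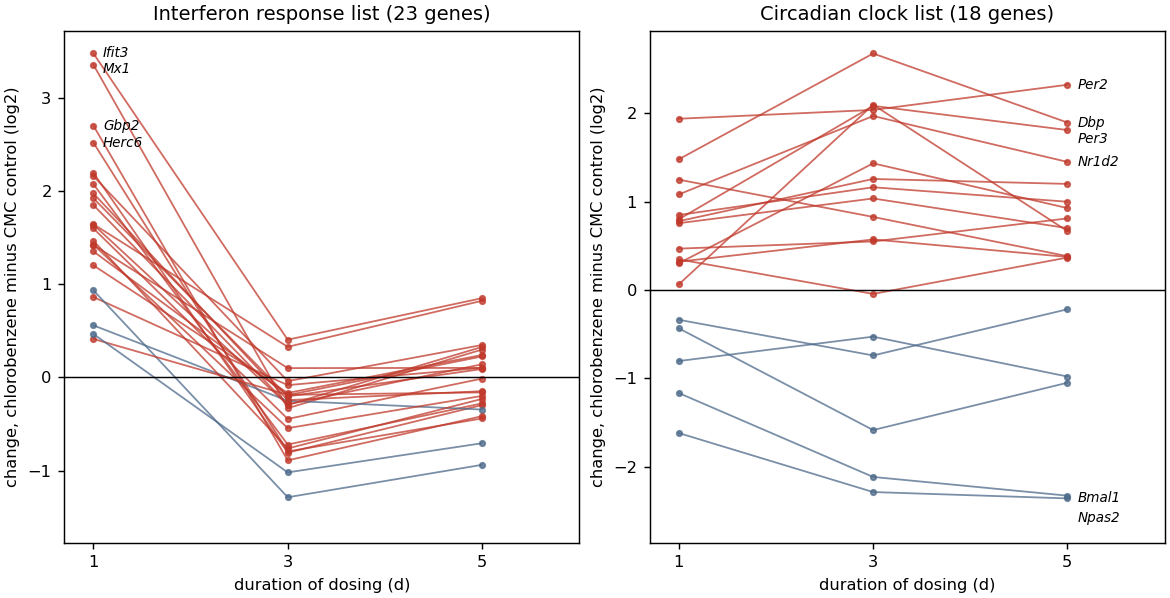
Change between chlorobenzene and CMC control hearts (vertical axis, log2) at 1, 3 and 5 d (horizontal axis) for each gene of the interferon list, left, and the circadian clock list, right. Lines are red where the mean of the 3 changes was above 0 and blue where it was below. Interferon genes were high at 1 d and near or below 0 at 3 d, with 20 of 23 below 0, whereas every clock gene but Hlf kept its sign over the 3 durations.

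The promoters of these genes were searched for the interferon-stimulated response element, spelled GAAA, NN and GAAA without a gap, on either strand, in promoter windows of 300 bases around the annotated start (RefSeq, GRCr8). Of the 19 interferon genes called higher at 1 d, 14 had a promoter sequence at hand and 8 of these held the element (57.1%), against 1034 of all 27457 promoters of this length (3.77%) and 350 of 11700 promoters of measured genes (2.99%). The 4 promoters shown were taken from the 8 that held the element and are of genes of different families. Their log2 changes at 1 d were 3.48 (Ifit3), 2.70 (Gbp2), 1.64 (Psmb8) and 1.43 (Ifi44), beside a list median of 1.64. The element stands in capitals, read 5′ to 3′ on the strand of the gene. The element began 44 bases before the start in Ifit3 (chr1:241527076-241527375, plus strand), 31 bases before it in Gbp2 (chr2:234005477-234005776, plus strand) and 4 bases before it in Psmb8 (chr20:4656982-4657281, minus strand). Ifi44 (chr2:243303791-243304090, minus strand) held 2, beginning 26 bases before and 26 bases after the start base. A match of letters is a description and not a shown binding site. The antioxidant response element, spelled TGAC, NNN and GC without a gap, was in 0 of the 6 promoters of called NRF2 list genes and in 12.2% of all promoters. Bases outside the 300 were not searched, and 6 promoters are too few at that share to say that the element is lacking.
Ifit3: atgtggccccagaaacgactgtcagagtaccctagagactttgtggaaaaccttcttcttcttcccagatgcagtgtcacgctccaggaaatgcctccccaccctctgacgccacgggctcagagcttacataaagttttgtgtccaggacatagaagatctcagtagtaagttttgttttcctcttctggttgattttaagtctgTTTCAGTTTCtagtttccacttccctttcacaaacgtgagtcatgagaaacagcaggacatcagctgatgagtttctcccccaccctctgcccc
Gbp2: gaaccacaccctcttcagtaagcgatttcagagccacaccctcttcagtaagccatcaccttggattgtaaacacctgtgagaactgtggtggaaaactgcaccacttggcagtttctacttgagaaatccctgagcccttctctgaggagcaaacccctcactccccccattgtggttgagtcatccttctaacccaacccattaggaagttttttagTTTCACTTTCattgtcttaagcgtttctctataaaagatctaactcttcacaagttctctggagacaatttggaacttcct
Psmb8: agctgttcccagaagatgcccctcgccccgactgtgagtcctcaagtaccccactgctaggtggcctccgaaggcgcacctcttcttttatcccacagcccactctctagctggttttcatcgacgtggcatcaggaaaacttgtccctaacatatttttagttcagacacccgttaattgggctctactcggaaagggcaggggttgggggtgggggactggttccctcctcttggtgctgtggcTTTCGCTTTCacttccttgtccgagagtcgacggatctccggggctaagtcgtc
Ifi44: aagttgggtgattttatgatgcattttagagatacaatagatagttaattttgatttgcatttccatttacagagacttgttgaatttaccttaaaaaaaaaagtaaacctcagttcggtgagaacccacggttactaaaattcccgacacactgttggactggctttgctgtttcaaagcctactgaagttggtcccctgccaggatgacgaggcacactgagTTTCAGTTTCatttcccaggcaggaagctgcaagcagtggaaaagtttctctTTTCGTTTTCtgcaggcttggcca
Ifi44, an interferon-induced protein, was 2.69-fold higher at 1 d and Psmb8, an inducible proteasome subunit, 3.12-fold higher (adjusted p = 5.05e-05 and 3.8e-07).

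Some markers of macrophages were higher. Of 12 measured, 5 were called higher over the 3 durations and none lower, beside 1.50% and 1.41% of all genes, with a list median change of 0.30. The list median per array was 7.89 to 8.30 at 1 d in chlorobenzene hearts and 7.19 to 7.75 in controls, and 7.62 to 8.30 against 7.19 to 7.97 over all durations. Mrc1, the mannose receptor, had 8.97, 9.15 and 8.82 in the chlorobenzene rats, against 7.46 to 8.65 (median 7.83) in the CMC controls at 3 d and was 1.94-fold higher (log2 0.95 ± 0.12, adjusted p = 3.09e-07). Cd163, the receptor for haemoglobin bound to haptoglobin, had 6.49, 6.31 and 6.40 in the chlorobenzene rats, against 4.95 to 6.10 (median 5.54) in the CMC controls at 5 d and was 1.86-fold higher (adjusted p = 2.24e-06). Cd14, C1qb and C1qc were 2.05-fold, 1.5-fold and 1.56-fold higher. At 1 d, 4 of the 12 were called higher and at 5 d 3, beside 1.86% and 0.851% of all genes. None was called at either duration without the 6 arrays with liver transcripts, where at 1 d the list median change was 0.47. None of the 10 lymphocyte genes was called, with list medians of 4.98 to 5.62 in chlorobenzene rats and 4.82 to 5.48 in controls at 1 d. Among 20 inflammation genes, 4 were called higher at 1 d, beside 1.86% of all genes: Cxcl1 (3.94-fold), Icam1 (2.6-fold), Vcam1 (3.22-fold) and Orm1 (2.81-fold). Without the 6 arrays, 1 of the 20, Vcam1, was called at 1 d. Over the 3 durations Cxcl1, Orm1 and Timp1, an inhibitor of matrix proteases, were called higher, beside 1.50% of all genes. With the hybridisation date as a random block Cxcl1 and Timp1 lost their calls (adjusted p = 0.016 and 0.0229). The part of macrophage number in the interferon and inflammation changes was not tested.

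Immediate early genes, which are switched on within minutes of many stimuli, held the pair with the largest rises, Nr4a3 and Atf3. Nr4a3, an orphan nuclear receptor, was 25.7-fold higher over the 3 durations (log2 4.68 ± 0.65, adjusted p = 9.36e-07). Nr4a3 levels in the chlorobenzene rats were 11.87, 10.31 and 9.78 at 1 d, 10.73, 9.17 and 10.29 at 3 d and 9.11, 10.29 and 10.91 at 5 d. Control levels were 4.14 to 8.46 (median 4.63) at 1 d, 4.24 to 10.43 (median 4.35) at 3 d and 4.34 to 10.19 (median 4.95) at 5 d. Treated rats were high at every duration, and the highest control reached into their range at 3 d and 5 d. The other probe sets of Nr4a3 gave log2 changes of 2.73 and 0.31, and the mean of all of them 2.57. Atf3, a stress-induced transcription factor, was 8.07-fold higher over the 3 durations (log2 3.01 ± 0.61, adjusted p = 0.000335), and its adjusted p was 0.42 at 5 d alone. Atf3 levels in the chlorobenzene rats were 10.18, 9.50 and 10.10 at 1 d and 7.18, 9.01 and 7.74 at 5 d. In CMC controls they were 4.28 to 8.06 (median 4.81) at 1 d and 4.23 to 9.55 (median 5.00) at 5 d. Fosb, an AP-1 subunit, was 15.6-fold higher at 1 d (adjusted p = 0.000103) with 10.40, 8.38 and 8.66 in the chlorobenzene rats, against 5.04 to 5.48 (median 5.16) in the CMC controls. At 5 d Fosb had 5.19, 5.58 and 5.87 in chlorobenzene rats and 4.90 to 9.29 (median 5.25) in controls, the highest of which was above the treated rats. Nr4a1 and Nr4a2, relatives of Nr4a3, and Myc were 10.7-fold, 4.03-fold and 5.21-fold higher at 1 d. Without chlorobenzene rat 1 of 1 d, Nr4a1 and Nr4a2 were not called at 1 d (adjusted p = 0.0331 and 0.036). In all, 6 of 19 immediate early genes were called higher at 1 d, 1 at 3 d and none at 5 d, beside 1.86%, 1.08% and 0.851% of all genes. The 3 d call, of Nr4a3, was lost with the hybridisation date as a random block (adjusted p = 0.0149). Over the 3 durations 3 of the 19 were called, and 9 without the 6 arrays with liver transcripts. Hspa1a, the inducible heat shock protein of the HSP70 family, was 3.64-fold higher (adjusted p = 6.19e-07), with 11.02, 8.88 and 10.49 in the chlorobenzene rats, against 7.32 to 8.80 (median 8.23) in the CMC controls at 3 d, and the other 12 heat shock genes measured were not called. Cebpb, a transcription factor of stress and acute phase genes, was 3.54-fold higher (adjusted p = 1.18e-05). With Ddit4 it was 1 of 2 genes called among 22 of the integrated stress response, beside 1.50% of all genes called higher.

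Genes of the circadian clock changed in both directions. Of 18 measured, 10 were called higher and 4 lower, beside 1.50% and 1.41% of all genes. The 4 lower genes were Bmal1, Npas2 and Clock, which form the activating arm of the clock, and Nfil3, a repressor of D-box genes. The 10 higher ones were the repressors Per1, Per2, Per3, Nr1d2, Bhlhe40 and Bhlhe41, the D-box activators Dbp and Tef, Rora, an activator of Bmal1, and the deubiquitinase Usp2. The repressor Cry1 was not called. Bmal1 levels in the chlorobenzene rats were 6.14, 5.81 and 5.94 at 1 d, 5.96, 6.08 and 5.95 at 3 d and 5.66, 5.47 and 6.01 at 5 d. CMC controls ranged over 5.81 to 8.64 (median 8.05) at 1 d, 7.71 to 8.61 (median 8.40) at 3 d and 6.38 to 8.70 (median 8.13) at 5 d. The groups overlapped at 1 d, where the controls spread widely, and were apart later. Control rats 2 and 4 of 1 d had Bmal1 of 5.99 and 5.81 and Per2 of 9.13 and 8.62. The other 1 d controls had Bmal1 of 7.35 or more. Rats given CMC alone could thus come near the treated levels of both genes, and the cause was not tested. The change over the 3 durations was -2.09 ± 0.25 on the log2 scale, 4.26-fold lower (adjusted p = 4.81e-08). Npas2 was 3.66-fold lower (log2 -1.87 ± 0.17, adjusted p = 2.83e-10), with 5.26, 4.94 and 5.22 in the chlorobenzene rats, against 6.84 to 7.96 (median 7.54) in the CMC controls at 5 d. Per2 levels in the chlorobenzene rats were 9.92, 9.38 and 9.43 at 1 d, 9.41, 9.07 and 9.42 at 3 d and 9.41, 9.99 and 9.80 at 5 d. The controls had 6.80 to 9.13 (median 7.43) at 1 d, 6.53 to 7.94 (median 7.12) at 3 d and 6.77 to 7.97 (median 7.57) at 5 d. All treated rats were above all controls of their duration, and the probe set used was 4.29-fold higher (log2 2.10 ± 0.20, adjusted p = 5.78e-10). The other probe set of Per2, of nearly equal level, had a log2 change of 0.04, and the mean of both gave 1.07. Dbp was 4.05-fold higher (adjusted p = 1.8e-05), with 9.59, 9.95 and 9.90 in the chlorobenzene rats, against 6.59 to 8.09 (median 7.11) in the CMC controls at 3 d, and at 1 d its controls spanned 6.40 to 10.45 (median 7.67). Per3, Nr1d2, Tef and Usp2 were 2.96-fold, 2.83-fold, 2.11-fold and 2.01-fold higher. With the hybridisation date as a random block, 7 clock genes were called higher and 4 lower over the 3 durations, and at 3 d 3 were called higher in place of 6. The E-box CACGTG was found in 3 of the 14 promoters of the called clock genes (21.4%, against 6.65% of all promoters and 8.94% of those of measured genes), and the D-box TTANGTAA on either strand in 1, that of Per2 (2.19% of all promoters and 1.36% of those of measured genes). The Per2 promoter (chr9:99496944-99497243, minus strand, GRCr8) is shown because the Per2 probe set used was apart from controls at every duration, with the D-box in capitals, 192 bases before the start.
Per2: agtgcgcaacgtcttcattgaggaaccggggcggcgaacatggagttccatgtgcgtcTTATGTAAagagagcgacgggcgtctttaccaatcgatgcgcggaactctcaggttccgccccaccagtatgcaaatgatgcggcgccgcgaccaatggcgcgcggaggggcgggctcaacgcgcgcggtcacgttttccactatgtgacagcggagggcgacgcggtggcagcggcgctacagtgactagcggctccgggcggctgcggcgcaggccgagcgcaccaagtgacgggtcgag

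Of 15 measured targets of glucocorticoids, 9 were called higher, none lower and 6 not at all, beside 1.50% of all genes called higher, and the list median change was 0.82. At 3 d and at 5 d 4 were called higher, beside 1.08% and 0.851% of all genes. Fkbp5, a co-chaperone of the glucocorticoid receptor, had 9.90, 10.37 and 10.19 in the chlorobenzene rats, against 7.65 to 9.29 (median 7.94) in the CMC controls at 3 d and was 3.31-fold higher (log2 1.73 ± 0.27, adjusted p = 6.16e-06). Ddit4, an inhibitor of mTORC1, had 10.16, 10.15 and 10.40 in the chlorobenzene rats, against 7.61 to 9.35 (median 8.17) in the CMC controls at 1 d and was 2.69-fold higher (adjusted p = 9.32e-05). Nfkbia, the NF-kappa-B inhibitor, Tsc22d3 (GILZ) and Klf9 were 2.31-fold, 1.62-fold and 1.69-fold higher. Map3k6, a stress kinase, was apart from controls at all durations and 2.36-fold higher, with 7.83, 8.08 and 8.84 in the chlorobenzene rats, against 6.31 to 7.68 (median 6.84) in the CMC controls at 5 d. Mt2A and Per1, named above, belong to this list too. At 1 d, 10 of the 15 were called higher, beside 1.86% of all genes. Without the 6 arrays with liver transcripts 3 were called, with a list median change of 1.04, against 1.01 with all arrays.

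Genes of fuel choice changed by a few members. Pdk4, the kinase that shuts pyruvate out of oxidation, was 3.95-fold higher (log2 1.98 ± 0.22, adjusted p = 1.33e-08), with no overlap at any duration. Pdk4 levels in the chlorobenzene rats were 12.74, 12.56 and 12.49 at 1 d, 13.25, 12.37 and 12.83 at 3 d and 12.77, 12.75 and 12.48 at 5 d. The CMC controls had 9.72 to 12.04 (median 10.35) at 1 d, 10.05 to 11.40 (median 10.77) at 3 d and 9.50 to 12.04 (median 11.17) at 5 d. Angptl4, an inhibitor of lipoprotein lipase, was 3.37-fold higher (adjusted p = 1.16e-05), with 8.57, 6.91 and 9.26 in the chlorobenzene rats, against 5.45 to 6.65 (median 5.66) in the CMC controls at 3 d. G0s2, an inhibitor of triglyceride lipase, was 3.25-fold lower (log2 -1.70 ± 0.24, adjusted p = 1e-06). G0s2 levels in the chlorobenzene rats were 7.57, 8.11 and 8.00 at 1 d and 7.19, 8.41 and 8.72 at 3 d. Control levels were 8.69 to 10.82 (median 9.94) at 1 d and 9.45 to 10.78 (median 10.20) at 3 d. The other 25 of 27 genes of fatty acid oxidation and PPAR alpha were not called, nor was any of 39 genes of oxidative phosphorylation, whose median change was -0.02. Of 9 genes of muscle atrophy and autophagy, 3 were called higher (1.50% of all genes were) and 6 were not: Gabarapl1 (1.88-fold), Bnip3 (1.51-fold) and Sqstm1 (1.72-fold), and Bnip3 was under 1.5-fold without the 6 arrays with liver transcripts (log2 0.53).

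Some genes of blood vessels, matrix and the cell cycle were lower. Of 11 endothelial genes, 4 were called lower and none higher, and of 13 fibroblast and matrix genes 5 lower and none higher, beside 1.41% and 1.50% of all genes, with list median changes of -0.37 and -0.44. Cd93, a receptor of the endothelial surface, was 2.33-fold lower with no overlap (log2 -1.22 ± 0.11, adjusted p = 3.96e-10). Cd93 levels in the chlorobenzene rats were 9.01, 8.75 and 8.42 at 1 d, 8.52, 8.59 and 8.85 at 3 d and 8.11, 8.37 and 8.02 at 5 d. In CMC controls they were 9.16 to 10.09 (median 9.92) at 1 d, 9.39 to 10.19 (median 9.90) at 3 d and 9.06 to 10.06 (median 9.48) at 5 d. Aplnr, the apelin receptor, was 2.54-fold lower (adjusted p = 1.15e-08), with 7.88, 7.58 and 7.49 in the chlorobenzene rats, against 8.44 to 9.67 (median 9.29) in the CMC controls at 5 d. Emcn (endomucin) and Kdr, the main VEGF receptor, were 1.64-fold and 1.51-fold lower, and Nrp2, a co-receptor for VEGF and semaphorins, 2.57-fold lower with 6.52, 6.55 and 6.24 in the chlorobenzene rats, against 7.50 to 8.63 (median 8.01) in the CMC controls at 5 d. Among the collagens, Col1a1 had 10.69, 11.37 and 10.71 in the chlorobenzene rats, against 11.52 to 12.66 (median 12.09) in the CMC controls at 3 d and was 2.03-fold lower (log2 -1.02 ± 0.13, adjusted p = 3.38e-07). Col3a1 and Col1a2 were 1.7-fold and 1.66-fold lower, and Col6a6, a chain of collagen VI, 2.92-fold lower with 5.31, 5.00 and 5.56 in the chlorobenzene rats, against 6.40 to 7.48 (median 7.18) in the CMC controls at 3 d. The matrix proteins Postn and Lum were 2.45-fold and 1.73-fold lower. None of the 9 smooth muscle and pericyte genes was called. Of 33 cell cycle genes, 7 were called lower (1.41% of all genes were) and none higher, among them Cdk1 (2.04-fold), Cks2 (1.84-fold), Prc1 (1.82-fold) and Ccnd1 (1.67-fold). At single durations 1 was called lower at 1 d, 2 at 3 d and 0 at 5 d, beside 1.24%, 1.10% and 1.39% of all genes. Cdk1 had 4.91, 4.94 and 4.87 in the chlorobenzene rats, against 5.02 to 7.15 (median 5.61) in the CMC controls at 5 d, where it was not called. The list median per array was low, 5.05 to 5.59 in chlorobenzene hearts and 5.17 to 6.40 in controls, where deposited values ran from 3.15 to 14.8. No cell cycle gene was called against the other compounds described below.

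**Figure D4:**
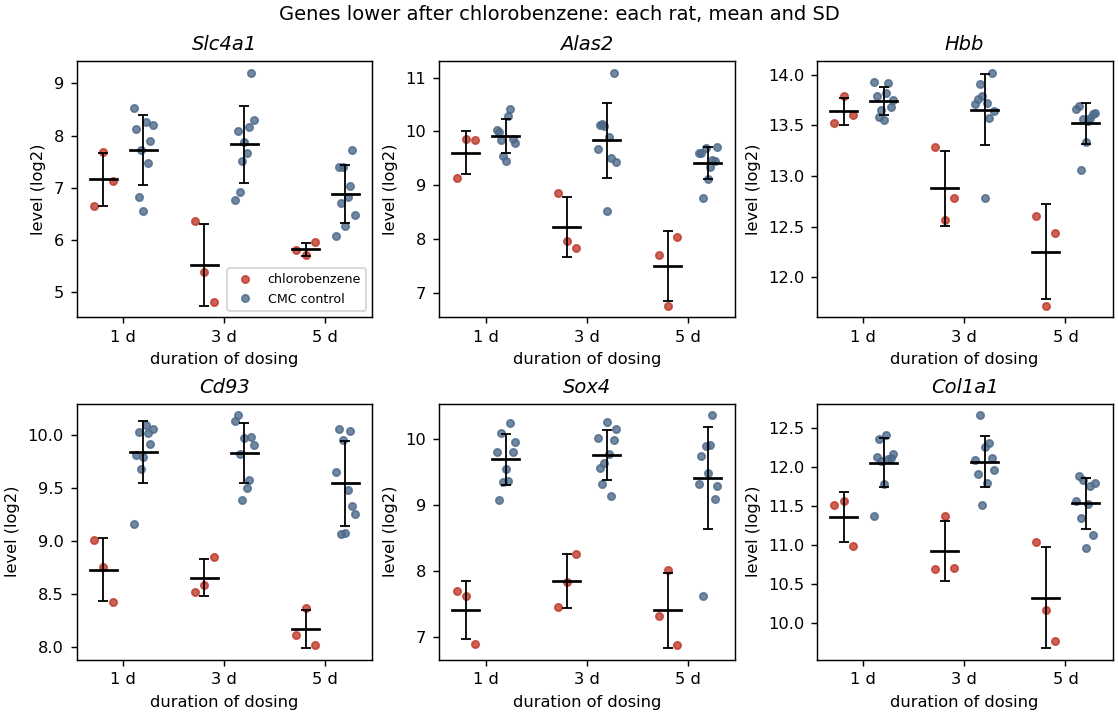
Log2 levels (vertical axis) of 6 genes that were lower after chlorobenzene, in each rat heart at 1, 3 and 5 d (horizontal axis), chlorobenzene in red to the left of CMC controls in blue, with the mean as a bar and the SD as whiskers (n = 3 and 9). Cd93 did not overlap at any duration, while Slc4a1, Alas2 and Hbb overlapped at 1 d.

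Further genes of large change had other roles. Tent5b, a poly(A) polymerase, was 4.52-fold higher (log2 2.18 ± 0.30, adjusted p = 1.16e-06), with 9.92, 9.50 and 9.57 in the chlorobenzene rats, against 5.89 to 8.36 (median 6.78) in the CMC controls at 3 d. The groups overlapped at 1 d and were apart at 3 d and 5 d. Klhl40, a kelch protein of the muscle thin filament, was 3.62-fold higher (adjusted p = 8.09e-10) and Pcdh20, a protocadherin, 4.24-fold higher at 5 d (adjusted p = 0.000136). Sox4, a transcription factor of development, was 4.18-fold lower (log2 -2.06 ± 0.19, adjusted p = 3.96e-10). Sox4 levels in the chlorobenzene rats were 7.70, 7.63 and 6.90 at 1 d and 7.45, 7.83 and 8.26 at 3 d. CMC controls ranged over 9.08 to 10.23 (median 9.79) at 1 d and 9.13 to 10.25 (median 9.77) at 3 d. Its 7 probe sets on the array had changes from -2.06 to 0.04, and their mean gave -0.86. The mean of all probe sets also gave a smaller log2 change for Nrp2 (-0.76), Cd93 (-0.69), Kdr (-0.27), Srxn1 (0.84), Sqstm1 (0.41) and Per3 (0.90). Of these, Kdr and Sqstm1 lost their calls. Probe sets not used had log2 changes of -0.85, -0.45 and -0.03 for Clock and -0.85 and 0.07 for Gja1. Those of Rora and Hyou1 had 0.09 and -0.36, so these 4 changes depended in part on the probe set kept. Among 38 named called genes with several probe sets, the sign differed for 4: Gja1, Kdr, Sox4 and Srxn1. Bcl6b, a transcriptional repressor, was 2.71-fold lower, Igsf10 2.7-fold lower, Smim5 2.55-fold lower and LOC100911508 2.88-fold lower (adjusted p = 4.35e-07, 6.42e-09, 4.98e-07 and 6.68e-11). Fbxl22, an F-box protein of the sarcomere, was 3.14-fold lower at 1 d (adjusted p = 2.18e-05), with 7.66, 8.77 and 7.49 in the chlorobenzene rats, against 9.32 to 10.02 (median 9.64) in the CMC controls. Among ion channels and connexins, Kcna5, a repolarising potassium channel, was 2.61-fold higher and Gja1, connexin 43, 1.6-fold lower (adjusted p = 4.27e-05 and 1.67e-07). Gja1 levels in the chlorobenzene rats were 12.76, 12.56 and 12.54 at 1 d and 11.71, 12.18 and 11.90 at 5 d. The controls had 12.41 to 13.12 (median 12.97) at 1 d and 12.40 to 13.12 (median 12.96) at 5 d. None of 16 calcium handling genes was called over the 3 durations, and the exchanger Slc8a1 was 1.5-fold lower at 1 d (adjusted p = 1.12e-06). Xirp1, a protein of the intercalated disc, was 1.9-fold higher, alone among 11 genes of hypertrophy and stretch (1.50% of all genes were called higher). Idi1 and Sqle, enzymes of cholesterol synthesis, were 1.69-fold and 1.65-fold lower, and Idi1 lost its call with the mean of its probe sets. The other 18 of 20 in that list were not called, and of all genes 1.41% were called lower. Herpud1, a factor of protein breakdown at the endoplasmic reticulum, was 1.65-fold higher and the chaperone Hyou1 1.51-fold lower. They were the 2 called among 18 genes of the unfolded protein response, beside 1.50% of all genes called higher and 1.41% lower. Ndrg1, a hypoxia-induced gene, was 1.82-fold higher, RT1-DMa, of MHC class II loading, 1.61-fold higher. Casq1, the calsequestrin of skeletal muscle, was 1.64-fold lower (adjusted p = 0.00317), a call that was lost with the hybridisation date as a random block (adjusted p = 0.0285) and without the 6 arrays with liver transcripts (adjusted p = 0.0244), and its log2 change was 0.00 within the shared extraction date.

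Chlorobenzene hearts were also set against those of 119 rats given 24 other compounds in CMC by gavage in the same extraction campaign, a comparison that shares the chlorobenzene arrays with the one above but no control array. There, 122 genes were higher (0.858%) and 80 lower (0.563%), together 202 (1.42%). Of the 413 genes called against CMC controls, 196 were called here with the same sign, 121 higher and 75 lower. The log2 change was -1.72 ± 0.27 for Tfrc (adjusted p = 1.06e-06), 1.65 ± 0.21 for Hmox1 (adjusted p = 3.65e-09) and 0.84 ± 0.19 for Ephx1 (adjusted p = 0.000954). It was -0.83 ± 0.17 for Cd93 (adjusted p = 0.000159) and -1.53 ± 0.21 for Sox4 (adjusted p = 1.83e-08). Of the clock genes, Per2 and Usp2 were called higher and Bmal1 and Npas2 lower, whereas Dbp had 0.72 ± 0.43 (adjusted p = 0.329) and was not called. In the red blood cell list Alas2 alone of 6 was called, at -0.73 ± 0.20. With the study as a random block, 123 genes were called, 71 higher and 52 lower.

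A related ring with a further chlorine, 1,4-dichlorobenzene, was given to 9 rats of the series at 900 mg/kg in corn oil, against 9 corn oil controls. Dose, vehicle and controls differ from those of chlorobenzene, so the values stand side by side and no comparison was made. In that experiment 4 genes were higher (0.0281%) and 9 lower (0.0633%), together 13 (0.0914%). Angptl4 had a log2 change of 2.66 ± 0.47 after 1,4-dichlorobenzene (adjusted p = 0.00966) and 1.75 ± 0.28 after chlorobenzene. Fcer2, the low-affinity IgE receptor, singled out after its values were seen, had -1.13 ± 0.20 after 1,4-dichlorobenzene and -1.17 ± 0.18 after chlorobenzene, both called. After 1,4-dichlorobenzene the log2 change was -1.10 ± 0.23 for Tfrc (adjusted p = 0.0173), 0.74 ± 0.35 for Hmox1 (adjusted p = 0.244), 0.23 ± 0.11 for Ephx1 (adjusted p = 0.242) and -0.21 ± 0.12 for Per2 (adjusted p = 0.365), none of which was called. Of the 413 genes of chlorobenzene, 4 were called after 1,4-dichlorobenzene.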

How the data were processed

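The authors normalised each array's intensities by RMA and deposited log2 values per probe set, with processing notes that name RMA and no version. The rat expression array measured poly A RNA of the hearts. The probe set kept for each gene was that of highest mean over all 862 arrays, giving 14217 genes. Levels were fitted in limma 3.58.1 (R 4.3.3) with treatment and duration over the 9 chlorobenzene and 27 CMC arrays, and as 6 group means for single durations and the test of the change by duration. A gene was called at an adjusted p of 0.01 or less (Benjamini-Hochberg over all genes) and a change of 1.5-fold or more. The scripts were tested on simulated data. Alternatives were the methods' t-test, other summaries and normalisation, a level filter, date and study blocks, single dates and leaving out animals.

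The text names the up to 12 genes higher and 12 lower that changed most and in 1 direction at all durations, the up to 4 each way at each duration, the 6 of smallest adjusted p for the change by duration, and called members of the gene lists, except 1 gene that is not reported here. The members and lists were chosen with earlier results of these data known. The number of arrays limits the precision. Replicates are separate animals. Sequences are from RefSeq (GRCr8) tables.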

Additional observations from a re-analysis of the deposited data

Results flagged for a closer look

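In 15 of 75 sets of 9 CMC controls, 1 animal stood apart from the other 8 by Dixon's ratio, the gap to the nearest animal over the whole range, which flags about 1 set in 20 by chance. The ratio was 0.769 for Nr4a3 at 1 d, 0.582 for Nr4a3 at 3 d, 0.541 for Atf3 at 1 d, 0.567 for Tent5b at 1 d, 0.515 for Dbp at 5 d, 0.585 for Hmox1 at 5 d and 0.59 for Mt2A at 5 d. It was 0.573 for Klhl40 at 1 d, 0.517 for Klhl40 at 5 d, 0.513 for Bmal1 at 5 d, 0.536 for Sox4 at 5 d, 0.511 for G0s2 at 5 d, 0.693 for Smim5 at 5 d and 0.606 for Aplnr at 1 d. The correlation of an array with the mean of all arrays gave 0.821 at 5 d, from control rat 10, whose liver list median was 9.52. Of the 15, 6 came from control rat 9 at 5 d and 4 from control rat 2 at 1 d. Rat 9 was highest for Hmox1, Mt2A and Klhl40 and lowest for Sox4, G0s2 and Smim5. Rat 2 was highest for Nr4a3, Atf3, Tent5b and Klhl40. Each flagged gene value lay on the side of the treated rats, so single rats given CMC alone showed part of these changes. The cause was not tested. Without control rat 9 of 5 d, 405 genes were called at 5 d. Sets of 3 treated rats were not tested.

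The change after chlorobenzene differed between 1, 3 and 5 d for 25 named genes in limma's test of the interaction. The adjusted p was given by Ifit3 (6.7e-05), Wars1 (5.75e-13), LOC100910973 (1.08e-10), Irf1 (1.88e-10), Gbp2 (4.56e-09), Gbp4 (8.9e-09), Parp14 (1.45e-08), Fcnb (1.72e-05) and Osgin1 (0.00497). Further ones were Isg15 (1.72e-05), Mx1 (1.75e-06), Mx2 (0.000588), Oasl (0.00203), Ifit2 (5.22e-05), Stat2 (1.4e-05), Rsad2 (0.000376) and Ifi44 (0.00024). The rest were Cxcl10 (2.78e-06), Psmb8 (6.7e-05), Psmb9 (6.22e-08), Tap1 (1.45e-08), Bst2 (0.000211), Herc6 (7.42e-08), Vcam1 (0.000153) and Foxo1 (0.000192). The change at 1 d was the largest of the 3 in 71 of all 80 genes that passed, and 16 of the 80 were interferon genes.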

How the results depend on the processing

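The count of genes called over the 3 durations stayed within 1.5 times of 413 under each alternative tested on all animals, and lay between 390 and 454 when animals were left out in turn. Leaving animals out gave 279 to 485 genes at 1 d, 100 to 328 at 3 d, 161 to 405 at 5 d, 58 to 92 for the change by duration, 164 to 214 against other compounds and 0 to 26 for 1,4-dichlorobenzene. The lowest 3 d count came without chlorobenzene rat 1, the lowest 1 d count without rat 1 and the lowest 5 d count without rat 3. With the hybridisation date as a random block, 123 genes had a change by duration. Against other compounds, 123 genes were called with the study as a random block. The methods' t-test called 0 genes for 1,4-dichlorobenzene after Benjamini-Hochberg adjustment, where 2833 of 14217 had an unadjusted p under 0.05 in limma.

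Within the extraction date of both groups (4 against 5 animals) 194 genes were called, and within the hybridisation date of both groups (2 against 4) 157. With duration in the fit, the values of that hybridisation date rested on 1 treated rat, rat 2 of 1 d, and on control rats 7 to 9 of 1 d. Its calls and changes are therefore 1 d results of a single treated rat, and 3 d and 5 d were not tested there. In these 1 d values 396 of the 413 genes (95.9%) kept their sign, in arrays that were among those used to call them. For this rat at 1 d the log2 change was turned or 0 for Casq1 (0.14), Hbb (0.00), Akr1b8 (-0.30), Ugdh (-0.05) and Timp1 (-0.15). Leaving out the 6 arrays with an Alb level of 9 or more, an alternative chosen after seeing the data, gave 254 genes at 1 d. Of 186 results for named genes, 76 kept their call in every setting they were run in and 110 lost it in at least 1. These counts do not cover the fits that left out single animals, and they include the single dates, which held few animals. Results of single durations were not run within single dates or with the extraction date as a block. The cause of the losses was not tested. Kdr, C1qb, C1qc, Rora, Hyou1, Ccnb2, Bhlhe40, Casq1, Bnip3, Akr1b8, Osgin1, Ugdh and Wars1 lost their call over the 3 durations when single animals were left out. No paired analysis was possible because replicate numbers follow accession order and pair no animals. With 3 treated rats per duration and 1 treated study, calls rest on few animals and the study cannot be told apart from the compound.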
